A study of Homo sapiens with 4 samples.

Results

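The genes described are those of the histone gene clusters, taken from the deposited gene tables by their symbols: every symbol of the form H1 with a number, H2AC, H2BC, H3C or H4C with a number. The rule found 70 genes among 28307 symbols. They are 10 linker histone H1 genes, 16 H2A, 17 H2B, 13 H3 and 14 H4 genes. Of these, 66 lie on chromosomes 6 (55 genes) and 1 (11 genes), where the histone clusters are, and are called cluster members below. The other 4, among them H1-10 (chromosome 3), H1-7 (12) and H1-8 (3), share the H1 symbol but lie outside the clusters. RNA was sequenced as polyA bulk libraries from excitatory neurons differentiated out of the human pluripotent line WTC11. Its cells express dCas9-KRAB, a Cas9 that cannot cut joined to a repressor domain, under a CAG promoter from an intron of CLYBL. Both groups carry that insertion. In the CRISPRi group (n = 2) lentivirus delivered guide RNAs against a MIR transposable element of chromosome 11, and in the control group (n = 2) the vector was empty. Neurons received the virus after 2 weeks of differentiation, then 4 days of puromycin at 0.5 μg/mL, and were harvested 7 days after the virus.

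Most cluster histone genes are replication-dependent: they are transcribed in S phase, have no introns, and end their mRNA not in a poly(A) tail but in a short conserved stem-loop bound by the protein SLBP. Selection for poly(A) therefore leaves most of this mRNA behind, while mRNAs of the same genes that run on to a downstream poly(A) signal are kept. Some cluster genes are known to make such polyadenylated mRNA in differentiated cells. H1-10 is a replication-independent linker histone gene whose mRNA is polyadenylated.

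The letters of the stem-loop, searched as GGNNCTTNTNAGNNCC on the transcript strand of GENCODE v29 transcripts, were found in 28 of the 70 members and in 388 of 206694 transcripts overall (0.188%). There were 6 forms of the 16 letters, the commonest in 15 members. The 4 stem-loops below belong to the 4 most abundant cluster members, with the 16 letters in capitals and up to 7 bases on each side:
H2BC21 stem-loop: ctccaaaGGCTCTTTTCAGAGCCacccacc
H3C6 stem-loop: atccaaaGGCTCTTCTCAGAGCCaaccact
H4C15 stem-loop: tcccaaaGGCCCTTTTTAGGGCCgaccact
H2BC5 stem-loop: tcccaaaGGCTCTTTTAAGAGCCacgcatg
The H3C6 form was found in no other member. The H4C15 form was shared with H4C14 and H4C9, and the H2BC5 form with H2BC4, H2BC7 and H3C8. The H2BC21 form was the commonest one and was shared with, among others, H2AC6, H2AC18 and H3C15.

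For each of these genes, an annotated transcript continued past the stem-loop or ended without one, and carried AATAAA near its end. The final 30 bases of those transcripts, and of H1-10 for comparison, show the signal in capitals:
H2BC21 transcript end: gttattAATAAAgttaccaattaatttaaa
H3C6 transcript end: agatgtaaAATAAAagattactgaacagaa
H4C15 transcript end: ttcAATAAAaagcctcctaatttaatcaag
H2BC5 transcript end: taattAATAAAatctgcggagaattgtaaa
H1-10 transcript end: ttgggcacAATAAAgcgtttaaacctttca
In the annotation the end of H2BC21 lies 1729 bases after its stem-loop, that of H3C6 1862 bases after and that of H4C15 690 bases after. The H2BC5 end shown belongs to a transcript model without the stem-loop letters. H1-10 has a poly(A) signal and no stem-loop letters. Over all members, AATAAA or ATTAAA occurred within the last 40 bases of a transcript, and after any stem-loop, in 23 of 70, of which 20 are cluster members and 19 also hold the stem-loop letters. Counted by single transcript, of any kind and wherever a stem-loop lay, the same signals occurred in 62506 of all transcripts (30.2%). The members are counted by gene, with any protein-coding transcript sufficing, so these shares are in unlike units. Many of the histone models stop at or near the coding sequence, so a missing match says only that these letters are not in the model.

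Total counts per library were 44839748 and 41560282 in CRISPRi replicates 1 and 2, against 944993 and 39325038 in control replicates 1 and 2. Control replicate 1 is thus 41.6-fold shallower than the shallowest of the other 3, which are called the deep libraries. In it 1 count equals 1.06 CPM (counts divided by the total of their library, times a fixed factor) and a floor of 3 counts equals 3.17 CPM. The 12 neuron markers looked at, TUBB3 and STMN2 among them, all had counts and summed to 19562 and 20328 CPM in CRISPRi neurons, against 17211 and 19748 CPM in controls. Control replicate 1 also stood apart in genes of dividing cells: 20 mitosis genes summed to 103 and 111 CPM in CRISPRi neurons, against 634 and 111 CPM in controls, the 634 CPM in replicate 1. In bulk RNA, fewer cells of a type and less RNA per cell cannot be told apart. Replicates were biologically independent, per the labels.

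The histone genes of the rule made up little of the polyA RNA, and a few of them held most of their counts. The 70 members held 0.0624% and 0.0596% of counts in CRISPRi replicates 1 and 2, against 0.0638% and 0.0599% in control replicates 1 and 2. Summed levels were 624 CPM (95% exact Poisson interval 617 to 632) and 596 CPM (589 to 603) in CRISPRi neurons, against 638 CPM (588 to 691) and 599 CPM (591 to 606) in controls. These intervals cover counting error only. The group means were 610 ± 20.1 CPM in CRISPRi neurons, against 618 ± 27.9 CPM in controls (SD, n = 2 each), a log2 ratio of -0.02. The groups overlapped, and the difference was smaller than either SD. Most of these sums came from outside the clusters. Cluster members alone summed to 143 and 133 CPM in CRISPRi neurons, against 135 and 139 CPM in controls. That was 23.0% and 22.3% of the members' counts in CRISPRi neurons, against 21.2% and 23.2% in controls.

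A count in at least 1 library was found for 55 of the 70 members, and 19 had one in every library. The number detected per library was 50 and 46 in CRISPRi neurons, against 23 and 47 in controls, the 23 being in the shallow control replicate 1. At 1 CPM or more in all 3 deep libraries there were 14 members. The 15 members at 0 in every library were H1-1, H1-6, H1-8, H2AC1, H2AC12, H2BC1, H2BC3, H2BC14, H3C3, H3C8, H3C11, H4C1, H4C6, H4C7 and H4C13. Among them H1-1, H1-6, H2AC1 and H2BC1 are known chiefly from lymphoid or testis cells, and H1-8 from oocytes. A count of 0 allows up to 0.0669 and 0.0722 CPM in CRISPRi neurons, and up to 3.17 and 0.0763 CPM in control replicates 1 and 2.

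**Figure D1:**
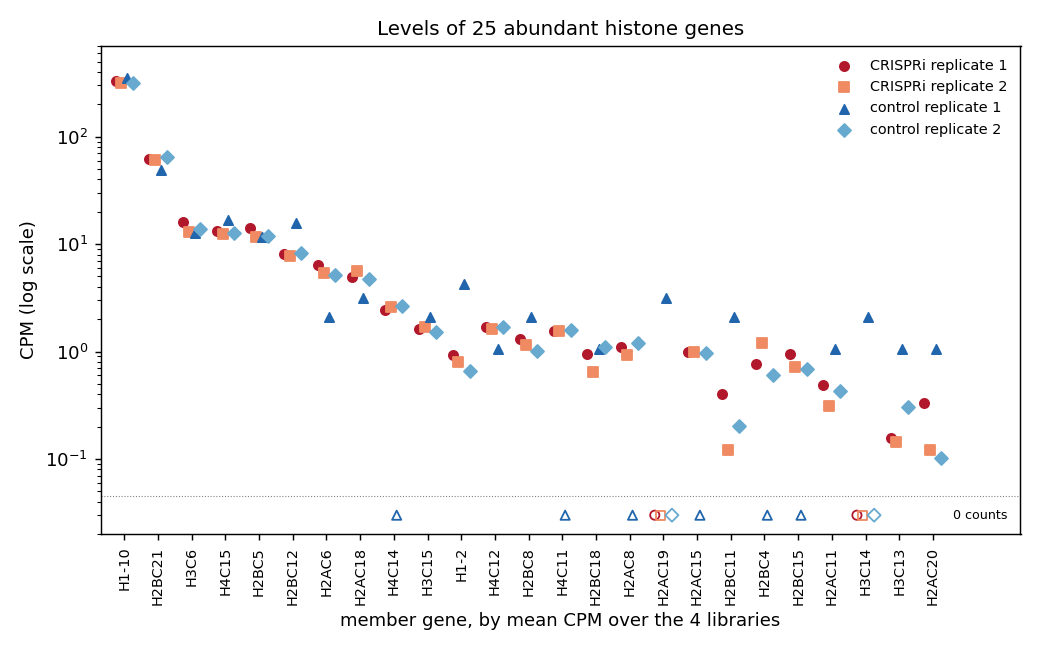
Level in CPM (log axis) of 25 of the 26 members with the highest mean, with 1 symbol per library (2 CRISPRi, then 2 control); open symbols under the dotted line mark 0 counts. H1-10 is far above H2BC21 and H2BC21 far above the rest shown in all 4 libraries, the 3 deep libraries lie close together, and control replicate 1 scatters below about 10 CPM, where it holds few counts.

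H1-10, a linker histone gene outside the clusters, led. It was at 330 and 317 CPM in CRISPRi neurons, against 354 and 318 CPM in controls, and made up 53.7% of the mean summed level of all members. The highest value was that of control replicate 1, and the other control lay between the CRISPRi values. H1-7, known from spermatids, had 4 and 7 counts in CRISPRi neurons, against 0 and 8 in controls, and H1-8 had none. Among all 28307 symbols, H1-10 ranked 466 by mean CPM.

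The linker H1 genes inside the cluster were close to absent from the deep libraries. Selection for poly(A) leaves most mRNA without a tail behind, and its part in these low values was not tested. The 6 genes together were at 1.05 and 1.08 CPM in CRISPRi neurons, against 4.23 and 0.788 CPM in controls. The value of control replicate 1 is 4 counts, all of H1-2. H1-2 had 42 and 33 counts in CRISPRi neurons, against 4 and 26 in controls, which is 0.937 and 0.794 CPM against 4.23 and 0.661 CPM. H1-4 had 3 and 9 counts in CRISPRi neurons, against 0 and 3 in controls, and H1-3 and H1-5 had at most 3 in any library.

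Among the core histones of the clusters, H2B genes dominated. They summed to 86.5 ± 3.98 CPM in CRISPRi neurons, against 85.4 ± 5.59 CPM in controls (SD, n = 2 each), and held 62.3% and 63.0% of the cluster members' counts in CRISPRi neurons, against 60.2% and 64.2% in controls. H4 genes summed to 19.8 ± 0.574 CPM in CRISPRi neurons, against 18.96 ± 1.38 CPM in controls, and H3 genes to 16.6 ± 2.09 CPM in CRISPRi neurons, against 18.04 ± 2.92 CPM in controls (SD, n = 2 each). H2A genes summed to 14.2 ± 0.762 CPM in CRISPRi neurons, against 12.3 ± 0.993 CPM in controls (SD, n = 2 each). Each nucleosome holds equal numbers of the 4 core histones, and the polyA counts, which are not corrected for length here, were not spread in that way over their cluster genes. The replicates of the groups overlapped for H2B, H3 and H4, and for H2A both CRISPRi values (14.7 and 13.6 CPM) lay above both controls (11.6 and 13.0 CPM). The H2A value of control replicate 1 rests on 11 counts, with an interval of 5.81 to 20.8 CPM that contains the other 3 values.

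H2BC21, an H2B gene at chromosome 1 from 149884460 to 149886682 on the minus strand of hg38, held the largest share of the cluster members' counts in every library. Its counts were 2796 and 2497 in CRISPRi neurons, against 46 and 2572 in controls, which is 62.4 and 60.1 CPM against 48.7 and 65.4 CPM. That was 43.5% and 45.2% of the cluster members' counts in CRISPRi neurons, against 35.9% and 47.0% in controls. The low value is that of control replicate 1, whose interval of 33.7 to 61.4 counts contains the 59.1 counts predicted from the deep libraries.

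The next cluster members were an H3, an H4 and further H2B genes. H3C6 was at 15.9 and 13.0 CPM in CRISPRi neurons, against 12.7 and 13.96 CPM in controls. H4C15 was at 13.3 and 12.5 CPM in CRISPRi neurons, against 16.9 and 12.7 CPM in controls. H2BC5 was at 14.1 and 11.6 CPM in CRISPRi neurons, against 11.6 and 11.8 CPM in controls. For each of these 3 genes the groups overlapped. H2BC12 was at 8.12 and 7.77 CPM in CRISPRi neurons, against 15.9 and 8.21 CPM in controls. Here both controls were above both CRISPRi values, the higher of them in control replicate 1 with 15 counts.

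The leading H2A genes were H2AC6 and H2AC18. H2AC6 was at 6.40 and 5.34 CPM in CRISPRi neurons, against 2.12 and 5.14 CPM in controls, and H2AC18 was at 5.00 and 5.68 CPM in CRISPRi neurons, against 3.17 and 4.76 CPM in controls. Both lay higher in each CRISPRi library than in each control, and the low control was replicate 1 with 2 and 3 counts. H4C14 was at 2.45 and 2.57 CPM in CRISPRi neurons, against 0 and 2.67 CPM in controls, and H3C15 at 1.63 and 1.68 CPM in CRISPRi neurons, against 2.12 and 1.53 CPM in controls. Both groups overlapped in these H3 and H4 genes. The 57 cluster members outside the 9 leading ones held 9.81% and 9.56% of the cluster counts in CRISPRi neurons, against 16.4% and 9.34% in controls.

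**Figure D2:**
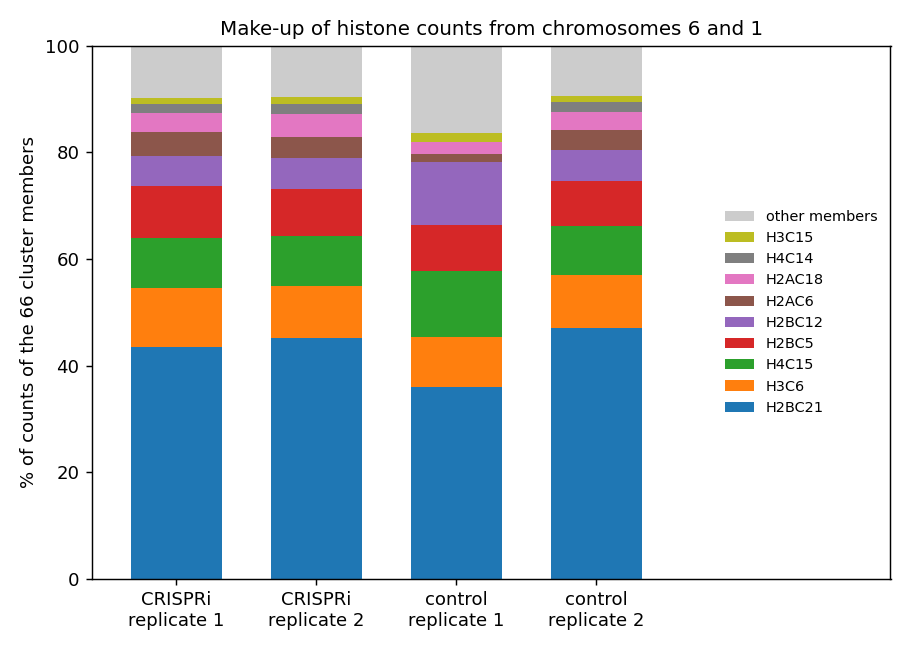
Share of the counts of the 66 cluster members (percent, axis from 0) held by the 9 leading members and by the other 57, in the 2 CRISPRi libraries and then the 2 control libraries. H2BC21 is the widest band in every library, at 43.5% and 45.2% in CRISPRi neurons and 35.9% and 47.0% in controls, and the control replicate 1 bar rests on 128 counts.

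Levels of different genes were compared per length with the FPKM values the authors deposited (fragments scaled by length and depth). They were summed over the rows of a symbol, and H4C15, H2AC18 and H4C14 have 2 rows each. H1-10 averaged 212 FPKM over the 4 libraries and H2BC21 25.9 FPKM, and neither overlapped with the other or with any other member. H2BC5 followed at 14.1 to 17.3 FPKM, H4C15 at 12.5 to 15.7 FPKM, H2BC12 at 9.19 to 20.6 FPKM, H2AC6 at 4.95 to 12.03 FPKM and H2AC18 at 6.27 to 10.4 FPKM. Each of these 5 overlapped with its neighbour in that order when control replicate 1 was included. In the deep libraries alone H2BC5 was at 14.1 to 17.3 FPKM, H4C15 at 12.5 to 12.9 FPKM and H2BC12 at 9.19 to 9.72 FPKM, without overlap. There H2AC6 still overlapped with H2BC12 and with H2AC18. H3C6, which ranked above them by CPM and has a row of 3296 bp in the files, was at 4.74 to 5.81 FPKM, and H4C14 was at 1.29 to 6.55 FPKM. In each library 2 or 3 members had a count of 0 but an FPKM above 0, H4C14 in control replicate 1 among them, so the authors' counts and FPKM do not rest on the same assignment of reads.

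The most abundant cluster members were more often those with an annotated poly(A) signal. Of the 12 cluster members highest in mean CPM, 7 had one (H2BC21, H3C6, H4C15, H2BC5, H2AC6, H2AC18 and H3C15), against 13 of the other 54. The 20 cluster members with a signal summed to 119 ± 6.58 CPM in CRISPRi neurons, against 113 ± 8.86 CPM in controls, and the 46 without one to 19.5 ± 0.804 CPM in CRISPRi neurons, against 24.1 ± 6.27 CPM in controls (SD, n = 2 each). The 20 held 86.0% and 85.8% of cluster counts in CRISPRi neurons, against 78.9% and 85.8% in controls. H2BC12 is the leading member without a signal in GENCODE v29, where its single model is 381 bases long, whereas its row in the files spans 8566 bp. The row of the files is a longest stretch on the genome and can hold introns. The 8 cluster members with a row over 1000 bp held 80.6% and 80.4% of cluster counts in CRISPRi neurons, against 79.7% and 81.8% in controls. For 23 members the longest annotated transcript exceeds the row in the files, H2AC6 (1654 bases against a row of 519 bp) among them, and counts from the extension are then not in the table. Gene length, annotation and level move together here, and their parts were not tested.

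H2A and H2B genes often stand head to head with a shared upstream region. In the files 11 such pairs lie 193 to 247 bp apart. In FPKM, the H2B gene was higher than its H2A partner across all libraries in 2 pairs, the H2A gene in 1, and in 8 pairs the libraries overlapped, most of them near 0. These are ranges over all libraries, the shallow control replicate 1 included. Partners were not compared within each library, so a steady order inside libraries can count as overlap here. H2BC21 was at 21.1 to 28.7 FPKM and its partner H2AC20, 235 bp away, at 0.206 to 1.47 FPKM. H2BC12 was at 9.19 to 20.6 FPKM and H2AC12 had no count. The order was the other way in the pair of H2AC6, at 4.95 to 12.03 FPKM, and H2BC4, 245 bp away, at 0 to 0.577 FPKM. Neighbours that share an upstream region thus differed in polyA level in both directions.

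The 150 bases upstream of the starts of these 4 genes are shown because they read the same region from its 2 ends (RefSeq, GRCh38.p14, each on its gene's strand). The octamer ATTTGCAT, a recognition sequence of the factor POU2F1 known from H2B promoters, and the letters TATAAA, on either strand, are in capitals:
H2BC21 (chr1:149886683-149886832, minus strand): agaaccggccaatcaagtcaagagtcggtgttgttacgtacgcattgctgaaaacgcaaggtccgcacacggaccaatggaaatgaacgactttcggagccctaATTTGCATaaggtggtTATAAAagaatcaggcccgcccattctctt
H2AC20 (chr1:149886768-149886917, plus strand): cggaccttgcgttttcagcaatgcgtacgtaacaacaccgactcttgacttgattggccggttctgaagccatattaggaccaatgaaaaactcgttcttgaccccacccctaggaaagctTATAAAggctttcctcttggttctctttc
H2BC4 (chr6:26123927-26124076, minus strand): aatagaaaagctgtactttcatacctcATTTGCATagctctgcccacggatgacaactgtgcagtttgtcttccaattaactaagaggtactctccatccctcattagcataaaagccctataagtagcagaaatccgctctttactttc
H2AC6 (chr6:26124022-26124171, plus strand): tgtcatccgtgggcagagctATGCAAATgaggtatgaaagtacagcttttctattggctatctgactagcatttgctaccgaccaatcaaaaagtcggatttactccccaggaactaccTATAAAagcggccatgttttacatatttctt
The octamer of the H2BC21 promoter lies next to its TATAAA, and that of the pair of H2BC4 and H2AC6 lies in the stretch both windows share. RefSeq promoters were matched for 61 cluster members. Within 150 bases upstream the octamer was found on either strand in 14 of 17 H2B genes, 5 of 15 H2A genes, 1 of 11 H3 genes and 0 of 12 H4 genes, and in 1.22% of 27305 genes with a promoter entry. The H3 gene was H3C4, through an entry identical to that of H2AC7, and the other entry of H3C4 held no octamer. In the longer window of 250 bases before to 50 after the start, the H2A genes with it were 11 of 15, the other 3 counts were as above, and 2.19% of all genes held it. TATAAA was found within 150 bases upstream in 59.0% of the 61 and in 8.30% of all genes, and CCAAT in 85.2% and 27.8%. A match in letters is a description, and none of these motifs was set against binding data.

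CRISPRi was compared with control by edgeR's quasi-likelihood test over all genes with enough counts, with Benjamini-Hochberg adjustment. No histone gene passed it. Of the 70 members 26 were tested, 0 were called higher (background 0 of 15708 genes, 0%) and 0 lower (background 4 of 15708, 0.0255%). At an unadjusted p under 0.05 also 0 members were higher and 0 lower, where 0.547% and 0.414% of all tested genes were. DESeq2 and limma-voom called 0 members in either direction. The 44 members not tested include 29 with a count in some library, none of which exceeded 16 counts. An exact permutation test of 2 libraries against 2 cannot give a two-sided p below 0.333, so none is given.

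The precision of the comparison differed between the members. The intervals of the leading genes were narrow. H1-10 had a log2 fold change (CRISPRi over control) of -0.03 (SE 0.08, 95% interval -0.24 to 0.18) and H2BC21 of 0.01 (SE 0.13, -0.31 to 0.33). For 7 of the 26 the interval lay within a halving and a doubling, against 68.7% of all tested genes. Among them were H1-10, H2BC21, H3C6, H4C15, H2BC5 and H2AC18. The rest reached a halving or a doubling, among them H2BC12 (-0.28, interval -1.03 to 0.47), H2AC6 (0.35, -0.49 to 1.19) and H1-2 (-0.30, -2.49 to 1.88). The median log2 fold change of the 26 was 0.05 (16 above 0, 10 below), beside 0.01 over all tested genes, 52.7% of which were above 0.

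The tested members with the smallest p among those with higher values in CRISPRi neurons included H2AC6, H2AC18 (log2 fold change 0.26, and 0.09 with its copy H2AC19 added), H2BC4 (0.80) and H4C9 (0.56). H2BC4 had 34 and 50 counts in CRISPRi neurons, against 0 and 24 in controls, and H4C9 had 21 and 13 in CRISPRi neurons, against 0 and 11 in controls. Among those with lower values they were H3C13 (-1.19), H2BC12, H2BC18 (-0.43), H4C8 (-0.49) and H1-10. H3C13 had 7 and 6 counts in CRISPRi neurons, against 1 and 12 in controls, and its unadjusted p of 0.133 from edgeR's model was the smallest of any member. H2BC18 had 43 and 27 counts in CRISPRi neurons, against 1 and 43 in controls, and H4C8 had 19 and 18 in CRISPRi neurons, against 0 and 26 in controls. The adjusted p by edgeR was 1.00 for every member. Of the other leading members, H3C6 had a log2 fold change of 0.09, H4C15 of -0.05, H2BC5 of 0.14, H4C14 of 0.17 and H3C15 of 0.05.

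**Figure D3:**
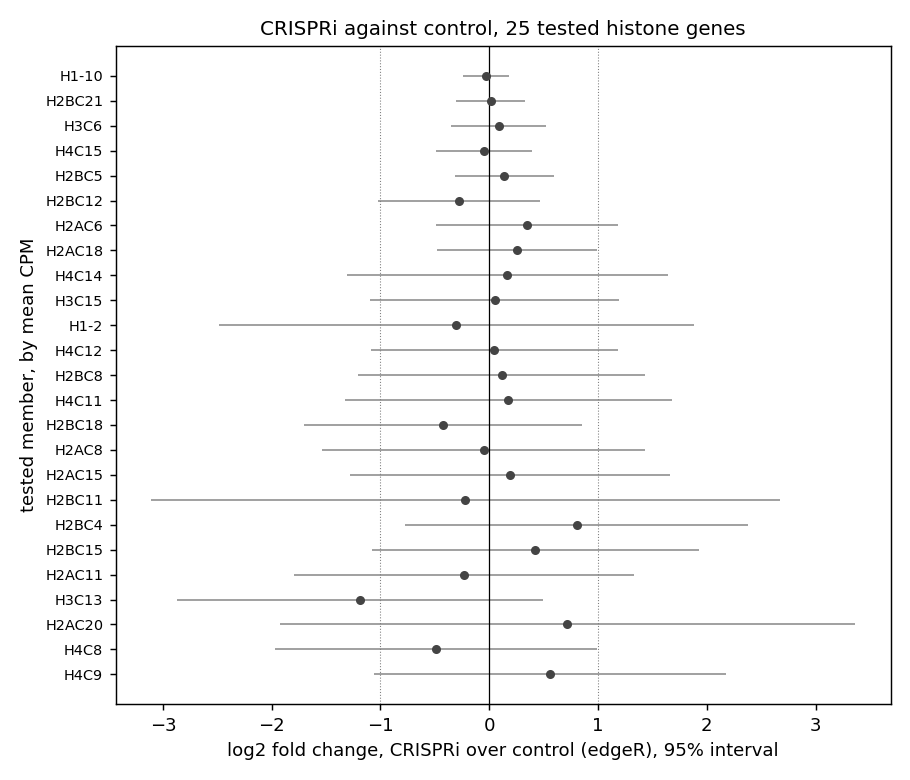
Log2 fold change, CRISPRi over control (edgeR), with 95% intervals for 25 of the 26 tested members, ordered from the highest mean CPM at the top; dotted lines mark a halving and a doubling. Every interval includes 0, from H1-10 (-0.03) at the top to the wide intervals of members with few counts.

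Since control replicate 1 stood apart, the test was repeated without it. Then 27 members were tested and 0 were called in either direction, where 0.437% of genes were higher and 0.222% lower. At an unadjusted p under 0.05 there were also 0 members, against 2.51% of genes higher and 1.97% lower. Log2 fold changes were 0.03 for H1-10, -0.09 for H2BC21, -0.04 for H2BC12, 0.20 for H2AC6 and 0.39 for H1-2. In the fit without control replicate 2, with control replicate 1 as the only control, 3.61% of genes were higher and 4.97% lower, and again 0 members. At an unadjusted p under 0.05 that fit had 1 member higher and 2 lower, against 11.3% and 10.3% of genes. A lone control library is assumed there to vary like the CRISPRi libraries.

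Control replicate 1 was higher in mRNA of genes typical of dividing cells, from a source that was not tested. Its histone counts were set beside what the level of the 3 deep libraries predicts at its depth. The 20 mitosis genes had 599 counts where 102 were predicted, a ratio of 5.87 (exact Poisson interval 5.41 to 6.36), and all 20 were above every deep library. MKI67, a marker of cycling cells, was at 11.1 and 13.6 CPM in CRISPRi neurons, against 76.2 and 14.2 CPM in controls. The 26 S-phase genes had a ratio of 2.60 (2.46 to 2.76), with 24 of 26 above every deep library. The replicative helicase subunit MCM4 was at 38.2 and 38.7 CPM in CRISPRi neurons, against 120 and 39.3 CPM in controls. Both lists were thus high in control replicate 1, with control replicate 2 near the CRISPRi libraries.

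The polyA counts of the cluster histone genes, most of which are S-phase genes themselves, were as a sum not high in the same library. Members with an annotated poly(A) signal held 78.9% of that sum. Since mRNA ending in the stem-loop is mostly left behind, the sum does not measure the S-phase form. The 66 cluster members had 128 counts where 131 were predicted, a ratio of 0.977 (0.815 to 1.16). The interval lies below that of the S-phase list. By family the ratio was 0.842 for H2A (0.420 to 1.51), 0.931 for H2B (0.735 to 1.16), 1.22 for H3 (0.735 to 1.91) and 0.906 for H4 (0.528 to 1.45). All 4 core families included 1. The linker H1 genes of the cluster had 4 counts where 0.925 were predicted, a ratio of 4.33 (1.18 to 11.1), all from H1-2.

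The cluster members were also split by their level in the pooled deep libraries, which gives the prediction too, and near-identical pairs were placed by the level of the pair. The 15 at 1 CPM or more, H2AC19 and H3C14 among them, had 115 counts where 124 were predicted (ratio 0.930, 0.768 to 1.12). The 51 cluster members below that had 13 where 7.37 were predicted (1.76, 0.940 to 3.02), and 1.36 (0.623 to 2.59) without H1-2. Where the interval of the low members lies depends on the placing of the copies: with each symbol placed by its own level, the 13 at 1 CPM or more had 110 counts (0.890, 0.731 to 1.07), and the 53 below had 18 (2.44, 1.45 to 3.86), of which H2AC19 and H3C14 gave 3 and 2. Without H1-2 the ratio of those below was 2.12 (1.16 to 3.56). Members with an annotated poly(A) signal had a ratio of 0.898 (0.731 to 1.09) and those without one 1.46 (0.962 to 2.12). The latter rests on 27 counts where 18.5 were predicted, and 15 of the 27 are of H2BC12. That gene is placed there by a single model of 381 bases. Of 8 members with 5 or more predicted counts, the prediction lay inside the interval for 7. The exception was H2BC12, with 15 counts (8.40 to 24.7) where 7.59 were predicted. Other members high in control replicate 1 rest on 1 to 4 counts, H2BC8 and H2BC11 with 2 counts each among them. H2BC8 had 59 and 48 counts in CRISPRi neurons and 40 in control replicate 2, and H2BC11 had 18 and 5 in CRISPRi neurons and 8 in control replicate 2.

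**Figure D4:**
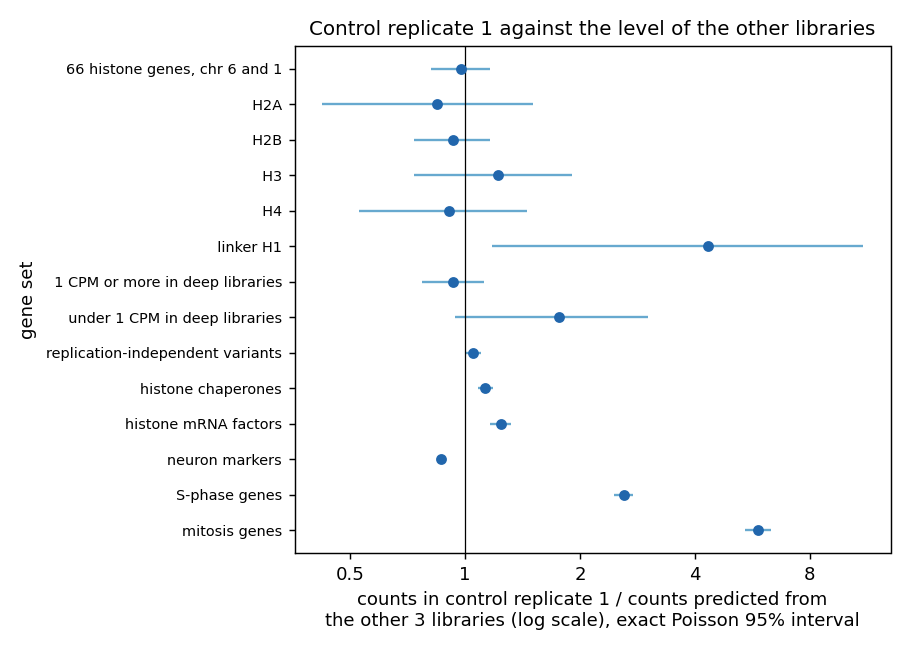
Counts in control replicate 1 divided by the counts predicted from the other 3 libraries (log axis), with exact Poisson 95% intervals, for histone gene sets and other lists. The 66 cluster members sit at 0.977, the S-phase genes at 2.60 and the mitosis genes at 5.87; near-identical pairs are placed by the level of the pair in the sets split at 1 CPM.

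Genes that make, carry or process histone mRNA and protein were looked at as lists. By edgeR's test 0 of the 141 tested genes of all 10 lists, the cell markers below included, passed. At an unadjusted p under 0.05 there were 2 higher (MACROH2A1 and DCN) and 1 lower (TAGLN), and DESeq2 and limma-voom called 0. These genes were named after their values were seen. MACROH2A1, which encodes the large H2A variant macroH2A, was at 248 and 247 CPM in CRISPRi neurons, against 223 and 174 CPM in controls. Its log2 fold change was 0.37 (adjusted p of 1.00 by edgeR), and without control replicate 1 it was the 1 gene of the lists called, at 0.51 (edgeR adjusted p = 0.00478). The call rests on control replicate 2 as the only control. The 12 replication-independent variants, which include H1-10 and are led by the H3.3 gene H3-3B, summed to 1886 ± 1.01 CPM in CRISPRi neurons, against 1870 ± 110 CPM in controls (SD, n = 2 each), with 7 members above 0 and 5 below. H3-3B was at 557 and 586 CPM in CRISPRi neurons, against 594 and 578 CPM in controls. The 19 histone chaperones had 8 members above 0 and 11 below, a median log2 fold change of -0.05, and among them NAP1L1 was at 270 and 278 CPM in CRISPRi neurons, against 276 and 258 CPM in controls. The next chaperones in level were RBBP4 (log2 fold change -0.05) and SUPT16H (0.04), a subunit of the FACT complex.

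The 18 genes of histone mRNA transcription, 3′ end formation and decay had 7 above 0 and 11 below, with a median of -0.02. SLBP, the stem-loop binding protein, which is also on the S-phase list, was at 32.0 and 32.9 CPM in CRISPRi neurons, against 44.4 and 33.5 CPM in controls, a log2 fold change of -0.14. The control above the others was replicate 1. The 3 genes highest in level were SNRPD3 (-0.05), the processing scaffold SYMPK (-0.02) and the RNA helicase UPF1 (-0.14). The 16 factors of ordinary polyadenylation had a median of -0.02, with NUDT21 at 0.13, PAPOLA at -0.10 and CPSF6 at 0.01. In control replicate 1 the ratio to prediction was 1.24 (1.16 to 1.32) for the histone mRNA list, 1.13 (1.08 to 1.18) for the chaperones, 1.10 (1.04 to 1.16) for the polyadenylation factors and 1.05 (1.00 to 1.10) for the variants.

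Lists of cell markers gave the following. The S-phase list had a median log2 fold change of -0.59 and the mitosis list of -1.28, and without control replicate 1 the medians were 0.02 and -0.01. Their genes highest in level were MCM7 (-0.46), MCM4 (-0.64) and RRM1 (-0.16), and TOP2A (-1.28), MKI67 (-1.28) and TPX2 (-0.66). The neuron list had a median of 0.12 (NEFM 0.12, STMN2 0.16, TUBB3 0.07) and a ratio to prediction in control replicate 1 of 0.866 (0.853 to 0.879). The 8 pluripotency markers summed to 29.7 and 29.2 CPM in CRISPRi neurons, against 30.7 and 30.2 CPM in controls, led by LIN28A (0.04), DNMT3B (-0.11) and SOX2 (-0.45). TDGF1 and ZFP42 were at 0 in every library, and POU5F1 was at 0.305 CPM at most. The 12 glial markers summed to 32.5 and 28.4 CPM in CRISPRi neurons, against 30.7 and 30.3 CPM in controls, with MBP (0.34) and OLIG2 (-0.82) among the highest, with AIF1, P2RY12 and SOX10 at 0. The 10 fibroblast markers summed to 117 and 132 CPM in CRISPRi neurons, against 111 and 125 CPM in controls, led by FBLN1 (0.04), COL1A1 (0.10) and COL3A1 (0.24). The part of any of these in the histone values was not tested.

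Several members are near-identical copies whose reads cannot be assigned with certainty. In the deep libraries H2AC18 held all counts of its pair and H2AC19 had 0, whereas control replicate 1 gave 3 counts to each. H3C15 and H3C14 showed the same, with 2 counts each in control replicate 1 and 0 for H3C14 in the deep libraries. H4C15 and H4C14 both had counts in the deep libraries. As sums, H2AC18 with H2AC19 was at 5.34 ± 0.483 CPM in CRISPRi neurons, against 5.55 ± 1.13 CPM in controls, H3C14 with H3C15 at 1.66 ± 0.0398 CPM in CRISPRi neurons, against 2.88 ± 1.91 CPM in controls, and H4C14 with H4C15 at 15.4 ± 0.500 CPM in CRISPRi neurons, against 16.1 ± 1.13 CPM in controls (SD, n = 2 each). With the pairs summed, the H2AC18 pair no longer lies above both controls, and its log2 fold change is 0.09, against 0.26 for H2AC18 alone.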

How the data were processed

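The authors deposited, for each library, a table of gene rows with a read count (whole numbers) and an FPKM value. The submitters' processing notes name hg38, edgeR and limma. Aligner, counter and strandedness: not given in the sources used here. No header names the FPKM column, and its unit was read from the values: for 14 members with 1 row of 1000 bp or less it lay at 0.948 to 1.00 times the count scaled by length and library total. Over the 22 members checked with 1 row of any length, it ran from 0.948 to 53.6 times, so the unit was read from short rows only.

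Counts were summed per symbol over all rows and divided by the library total to give CPM. Library totals ran from 944993 to 44839748. CRISPRi was compared with control, 2 libraries each, with edgeR's robust quasi-likelihood test (edgeR 4.0.16, R 4.3.3, TMM scaling, genes kept by filterByExpr, adjusted p under 0.05 by Benjamini-Hochberg over 15708 genes). DESeq2 1.42.0, limma-voom (limma 3.58.1), other scalings and filters, primary chromosomes only, a replicate block and each library left out were alternatives, and summing near-identical copies and placing each copy by its own level were added later, with the data known. Simulated counts were used to check the script. Counts predicted for control replicate 1 are the pooled level of the other 3 libraries times its total. FPKM was likewise summed per symbol over all rows and was used only to compare genes.

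The members and lists were chosen with earlier results of these data known. Named members are the 12 highest in mean CPM, any past the threshold, the 5 smallest p in each direction, the 12 highest in control replicate 1 (ties kept) and those outside the clusters, and, from each list, the 3 genes highest in mean CPM, with SLBP. Other genes named (H1-3, H1-4, H2AC12, H2AC20, POU5F1, genes at 0) were chosen after their values were seen. All 70 members were matched to GENCODE v29 transcripts by symbol or older name, and promoters came from RefSeq GRCh38.p14. Some genes that the naming rule takes are not reported here.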

Additional observations from a re-analysis of the deposited data

How the results depend on the processing

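No member was called under any alternative run, and the lowest adjusted p of a member in any of them, H1-2 without control replicate 2, was 0.124. Over all genes, the calls were 1 higher and 12 lower with DESeq2, 2 lower with limma-voom, and 17 higher and 25 lower with the replicate block; with 1 library left out they ran from 2 to 580 higher and from 15 to 798 lower. The replicate numbers do not pair the samples by the labels, and the correlation of same-numbered deviations was -0.03. That value cannot decide whether libraries were paired, because the control deviation takes in the shallow control replicate 1. The summed difference and the ratio of control replicate 1 over all 70 members (1.05, and 0.977 to 1.05 under its 3 alternatives) moved by less than their error; of the other ratios of that library, only those of the cluster members split by level were recomputed, as given with them. Of 224 values of the 19 named tested members, 203 kept their sign and 21 turned it, none of them a called value; the cause was not tested. The turned log2 fold changes were as follows. With limma-voom they were 0.0097 for H1-10, -0.070 for H2BC21, -0.11 for H3C15 and -0.18 for H2BC8, and with DESeq2 -0.026 for H3C15 and -0.11 for H2BC8. With the replicate block they were -0.016 for H3C15 and -0.097 for H2BC8, and with near-identical copies summed -0.23 for H3C15. With each library left out, the range was -0.10 to 0.031 for H1-10, -0.090 to 0.36 for H2BC21, -0.030 to 0.25 for H3C6, -0.36 to 0.030 for H4C15, -0.081 to 9.20 for H4C14, -0.32 to 0.12 for H3C15, -2.25 to 0.39 for H1-2, -0.62 to 6.66 for H4C8, -0.74 to 0.29 for H2BC8 and -2.95 to 0.38 for H2BC11. The values of 9.20 and 6.66 are fitted against a lone control with 0 counts and are no measure of a fold. Depth limits the members under 1 CPM, since 1 count in control replicate 1 is 1.06 CPM.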

Other observations

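Among histone genes that the symbol rule did not take, H2AW, H2BU1 and H4-16 were chosen after their values were seen. Together they were at 14.7 ± 1.55 CPM in CRISPRi neurons, against 12.3 ± 2.46 CPM in controls (SD, n = 2 each). H2AW, an H2A gene, made up most of this with 635 and 503 counts in CRISPRi neurons, against 10 and 488 in controls. H2BU1 had 40 and 34 counts in CRISPRi neurons, against 0 and 41 in controls, and H4-16 had 33 and 28 in CRISPRi neurons, against 0 and 24 in controls. Of the genes on the lists, 2 were likewise chosen after their values were seen. CENPA, the centromeric H3 variant, was at 0.357 and 0.602 CPM in CRISPRi neurons, against 5.29 and 0.839 CPM in controls, the high value being that of control replicate 1 with 5 counts. ASF1B, a histone chaperone of proliferating cells, was at 0.937 and 1.08 CPM in CRISPRi neurons, against 12.7 and 1.09 CPM in controls, again highest in control replicate 1, with 12 counts.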
